A study of Mus musculus with 13 samples.

Results

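Glutathione transferases, aldehyde dehydrogenases and flavin monooxygenases were examined in the cerebral meninges of newborn mice that lack the growth factor PDGF-C and carry a single working copy of its receptor gene. The set was chosen by symbol: Gst followed by class letters and a number, Aldh followed by a number, a letter and a number, or Fmo followed by a digit, without Aldh1a1, Aldh1a2 and Aldh1a3, the enzymes that make retinoic acid. It comprised 41 of the 19938 genes tested: 19 glutathione transferases, 17 aldehyde dehydrogenases and 5 flavin monooxygenases. Each gene was represented by a probe set that carries its symbol alone, and by the brightest of them where it has several. Gsta1, Gsta2 and Gstp2, whose probe sets carry several symbols, are therefore outside the set.

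The meninges of 13 C57BL6 pups, all born in 1 litter, were profiled separately on the Affymetrix Mouse Gene 1.0 ST platform. The 4 mutants were Pdgfc-/-; Pdgfra GFP/+. The 9 controls were the other littermates, pooled over 5 genotypes: with both Pdgfra copies these were Pdgfc+/+, Pdgfc+/- or Pdgfc-/-, while carriers of Pdgfra GFP/+ were either Pdgfc+/+ or Pdgfc+/-. The labels do not say which control had which genotype. In the GFP allele a nuclear green fluorescent protein takes the place of Pdgfra, so mutants and some controls share the loss of a Pdgfra copy. Values are PLIER intensities on a linear scale, and the p-values rest on the spread between mice of this litter.

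Pdgfc averaged 25.7 ± 3.41 in mutants (SD, n = 4) and 164 ± 86.8 in controls (SD, n = 9), and Pdgfra averaged 1078 ± 352 in mutants and 1764 ± 429 in controls. Both fell, with adjusted p = 0.00772 and 0.0276. Control 2 had a Pdgfc intensity of 5.88, below every mutant. Xist, the transcript of the inactive X chromosome, lay at 2.24 to 4.77 in the mutants, at 4.78 to 8.73 in controls 1, 5 and 8, and at 536 to 1020 in the other 6 controls, so genotype and sex are not balanced between the groups. The median intensity of an array was 56 to 89.6 in mutants and 44.1 to 89 in controls. Meningeal fibroblast markers were present in every array, with a summed intensity over 24 genes of 42906 to 63386 in mutants and 53992 to 71899 in controls.

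Glutathione transferases are enzymes that join the tripeptide glutathione to reactive and foreign molecules, which makes these easier to export. Aldehyde dehydrogenases oxidise aldehydes, among them products of lipid peroxidation and intermediates of amino acid and folate metabolism, to acids. Flavin monooxygenases add oxygen to nitrogen and sulphur atoms of drugs and metabolites. The liver, and barrier tissues such as the gut and the covers of the brain, are known for high levels of several of these enzymes.

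In the intensities as deposited, most changes among these genes ran downward in mutant meninges. Of the 41 genes, 15 fell and 4 rose at an adjusted p under 0.05, and 22 had no call. The 15 that fell are 36.6% of the set, beside 6.31% of all tested genes, and the 4 that rose are 9.76%, beside 8.58% of all tested genes. The median log2 fold change, mutant minus control, was -0.29 over the set and 0.00 over all tested genes, against 0.01 and 0.31 with arrays centred on fibroblast genes. Every mutant lay below every control for 9 genes of the set, beside 3.04% of all genes, and every mutant lay above every control for 4 genes, beside 6.4% of all genes. In bulk tissue, fewer cells that express a gene and less RNA per cell cannot be told apart.

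Glutathione transferases had 8 genes that fell and 1 that rose among 19, aldehyde dehydrogenases 6 that fell and 2 that rose among 17, and flavin monooxygenases 1 of each among 5. The median log2 fold change of the glutathione transferases was -0.37, and -0.06 with arrays centred on fibroblast genes. Differences over 2-fold were seen for 4 genes: Aldh1a7, Gsta4 and Aldh7a1 were lower and Aldh1l2 was higher in mutants. Olfactory receptor genes, which meninges are not known to use, served as a gauge of background: the 95th percentile of the mean intensity of 1015 of them was 65.0 in mutants and 63.3 in controls. Of the 41 genes, 8 lay under it in both groups, and no fold is given for these: Aldh3a1, Aldh8a1, Fmo2, Fmo4, Fmo5, Fmo9, Gsto2 and Gstt4. The medians of the dehydrogenases and the monooxygenases fall on Aldh3a1 and Fmo4 and are left out for the same reason. For Aldh1b1, Gsta3, Gstm6, Gstp3 and Gstt1 the mean of a single group lay under this bound, and their log2 fold changes carry that limit.

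**Figure D1:**
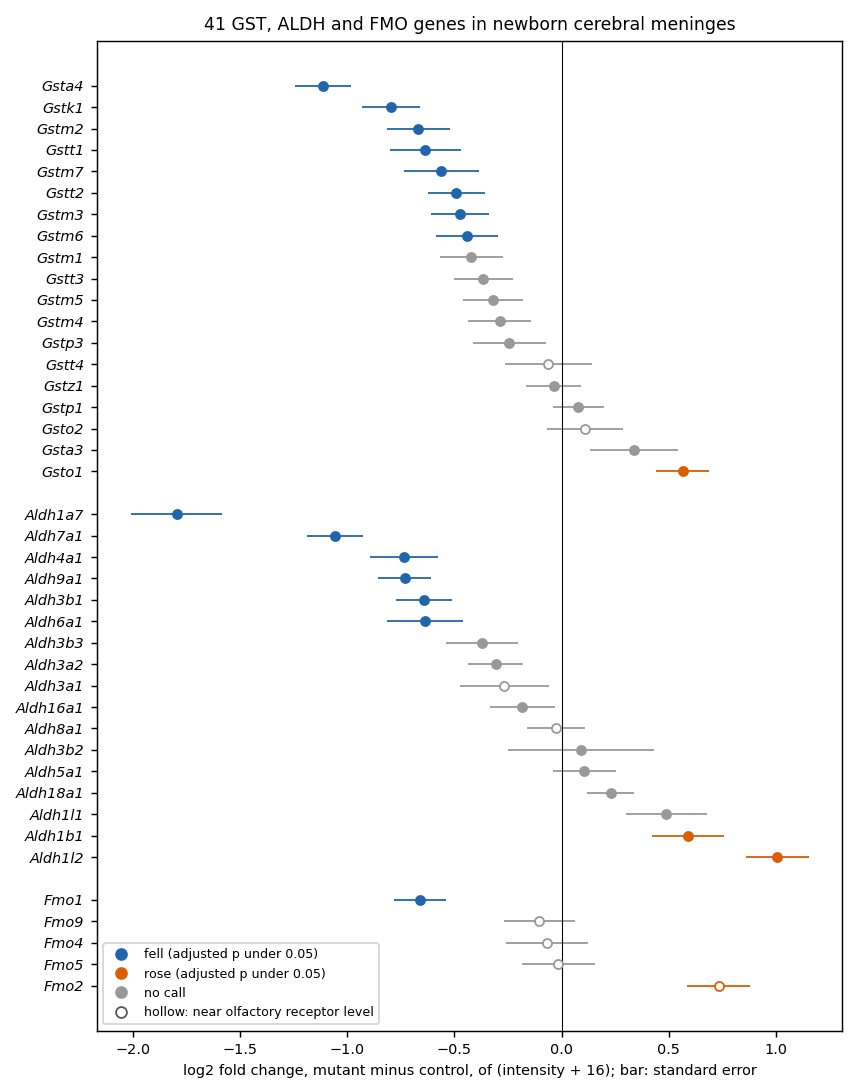
Log2 fold change (mutant minus control, of intensity + 16) of the 41 genes, grouped by family, with the standard error as a bar, for 4 mutants and 9 controls. Blue points fell, orange points rose, grey points had no call, and hollow points lay near the level of olfactory receptors; 15 points are blue and 4 are orange.

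The antioxidant response element and the xenobiotic response element are the DNA motifs through which the transcription factors NRF2 and AHR are known to act on detoxification genes, so the promoters were searched for their cores. RefSeq promoter sequences (build GRCm38.p6) were found for 34 of the 41 genes, as 44 promoters of which the 250 bases before the start were read on both strands. The antioxidant core, TGACNNNGC, stood in 4 of the 44 promoters (9.09%), beside 10.2% of 32851 promoters of all genes. The xenobiotic core, TNGCGTG, stood in 3 of 44 (6.82%), beside 4.1% of all. Matches lay in Aldh9a1 and Gstm7, which fell, and in Aldh3a2, Aldh18a1, Gsta3 and Gstm5, which had no call. Aldh9a1 was the single gene of the set with both cores.

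The stretches around 4 of these promoters are shown because they hold the matches, in capitals, that lie outside the annotated span of the gene over all its transcripts, read 5′ to 3′ on the strand of the gene. The matches in Aldh3a2 and Gstm7 lie inside that span and are not shown. In Aldh9a1 the first run of capitals is the antioxidant core and the second is the xenobiotic core, which is read on the opposite strand.
Aldh9a1, chr1:167349874-167349962, plus strand: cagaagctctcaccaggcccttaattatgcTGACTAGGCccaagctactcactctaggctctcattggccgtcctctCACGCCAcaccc
Gsta3, chr1:21240434-21240502, plus strand: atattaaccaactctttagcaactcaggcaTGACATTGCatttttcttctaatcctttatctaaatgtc
Gstm5, chr3:107895782-107895850, plus strand: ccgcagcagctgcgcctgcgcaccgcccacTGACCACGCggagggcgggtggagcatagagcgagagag
Aldh18a1, chr19:40588464-40588500, minus strand: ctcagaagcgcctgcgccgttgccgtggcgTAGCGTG
A match is a run of letters and does not show that a factor binds there.

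Among the glutathione transferases, the alpha class gene Gsta4 fell most. Its enzyme clears hydroxynonenal, an aldehyde released by lipid peroxidation. Intensities were 616, 660, 599 and 929 in mutants 1 to 4, and the controls ran from 1341 through a median of 1460 to 1705. The brightest mutant was far below the dimmest control. Means were 701 ± 154 in mutants (SD, n = 4) and 1517 ± 138 in controls (SD, n = 9), 2.16-fold lower in mutants (log2 fold change -1.11, standard error 0.13, adjusted p = 3.04e-06). The other alpha gene with a probe set of its own, Gsta3, whose mouse enzyme is known to detoxify aflatoxin, had 66.7 ± 27.9 in mutants and 48.7 ± 15.4 in controls, with a wide overlap (log2 fold change 0.34, adjusted p = 0.385). A further 4 alpha probe sets, each shared by Gsta1, Gsta2 and a pair of predicted genes and not tested, ran from 24.3 to 73.3 in single mutants and from 19.7 to 71.5 in single controls, with means near the level of olfactory receptors.

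The kappa class gene Gstk1, whose enzyme works in mitochondria and peroxisomes, also fell without overlap. Its intensities were 85.9, 121, 94.9 and 149 in mutants 1 to 4 and 174 to 231 in controls, with a control median of 204. The log2 fold change was -0.80 (standard error 0.13, adjusted p = 0.000228).

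The mu class comprised 7 genes, which lie in a row on chromosome 3 in the order Gstm5, Gstm7, Gstm6, Gstm3, Gstm2, Gstm1 and Gstm4. The 4 neighbours Gstm7 to Gstm2 fell. Gstm2 had 157, 232, 176 and 252 in mutants 1 to 4 and 270 to 410 in controls, with a control median of 339. It was the single mu gene with no overlap between the groups (log2 fold change -0.67, standard error 0.15, adjusted p = 0.00277). Gstm7 had 210, 249, 200 and 362 in mutants and 290 to 576 in controls, with a control median of 368, so that mutant 4 lay among the controls (log2 fold change -0.56, adjusted p = 0.0337). Gstm3 had 309, 346, 336 and 464 in mutants and 414 to 597 in controls, with a control median of 504 (log2 fold change -0.47, adjusted p = 0.0225), and again mutant 4 lay among the controls. A second, dimmer Gstm3 probe set averaged 94.55 in mutants and 112 in controls, with overlap (log2 fold change -0.24). With the mean of its probe sets, Gstm3 had no call in limma (adjusted p = 0.167). Gstm6 was dim, at 33.8, 59.1, 37.5 and 62.4 in mutants and 54.5 to 85.8 in controls, with a control median of 72.7, and passed the test narrowly (log2 fold change -0.44, adjusted p = 0.0462).

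The calls of Gstm6, Gstm7 and Gstm3 were lost in 16 of 28, 11 of 29 and 8 of 29 alternatives. For Gstm6 and Gstm7 these include the methods' t-test. Gstm2 lost its call in 1 of 29, with unequal variances. The methods' 2-fold limit, which none of these 4 genes passed, is not among these alternatives.

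The remaining mu genes were also lower on average but had no call. Gstm1 had 421, 463, 450 and 664 in mutants 1 to 4 and 515 to 835 in controls, with a control median of 660, so that 3 of 4 mutants lay below the dimmest control (log2 fold change -0.42, adjusted p = 0.0614). It fell with a call in 8 of 29 alternatives. Gstm5 and Gstm4, at the ends of the row, had log2 fold changes of -0.32 and -0.29 (adjusted p = 0.163 and 0.253). The mu genes are close copies of each other, and how far their probes bind transcripts of their neighbours was not tested, so the 7 values may not be independent.

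The theta class enzymes act on small halogenated molecules, and their genes sit together on chromosome 10. Gstt1 had 49.3, 67.2, 44.0 and 68.9 in mutants 1 to 4 and 57.4 to 138 in controls, with a control median of 95.4 (log2 fold change -0.64, standard error 0.17, adjusted p = 0.0112). Gstt2 had 114, 142, 97.3 and 160 in mutants and 159 to 217 in controls, with a control median of 186 (log2 fold change -0.49, adjusted p = 0.0150). Both genes fell with a small overlap: in Gstt2 only mutant 4 reached the controls, and in Gstt1 mutants 2 and 4 lay above the dimmest control. The call of Gstt1 was lost in 5 of 28 alternatives and that of Gstt2 in 7 of 29. Their neighbour Gstt3 had a log2 fold change of -0.37 without a call (adjusted p = 0.0869), and Gstt4 lay near the level of olfactory receptors.

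Gsto1 was the single glutathione transferase that rose. This omega class enzyme reduces dehydroascorbate, the oxidised form of vitamin C, and removes glutathione from proteins. Intensities were 507, 699, 493 and 605 in mutants 1 to 4 and 341 to 444 in controls, with a control median of 368. Every mutant was above every control, and the log2 fold change was 0.56 (standard error 0.13, adjusted p = 0.00323). The adjusted p was 0.0615 with the Xist level as a covariate and 0.051 with arrays centred on their medians. A test with unequal variances gave an adjusted p of 0.0966. Its neighbour Gsto2 was near the level of olfactory receptors.

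The pi class gene Gstp1, known also as an inhibitor of the stress kinase JNK, overlapped between the groups, at 991 ± 134 in mutants and 936 ± 82.3 in controls (log2 fold change 0.08, adjusted p = 0.890). Gstp3 and the zeta class gene Gstz1, an enzyme of tyrosine breakdown, had log2 fold changes of -0.24 and -0.04 with no call. Gstz1 was the single gene that gained a call with the opposite sign under another scaling (log2 fold change 0.26 with arrays centred on fibroblast genes).

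**Figure D2:**
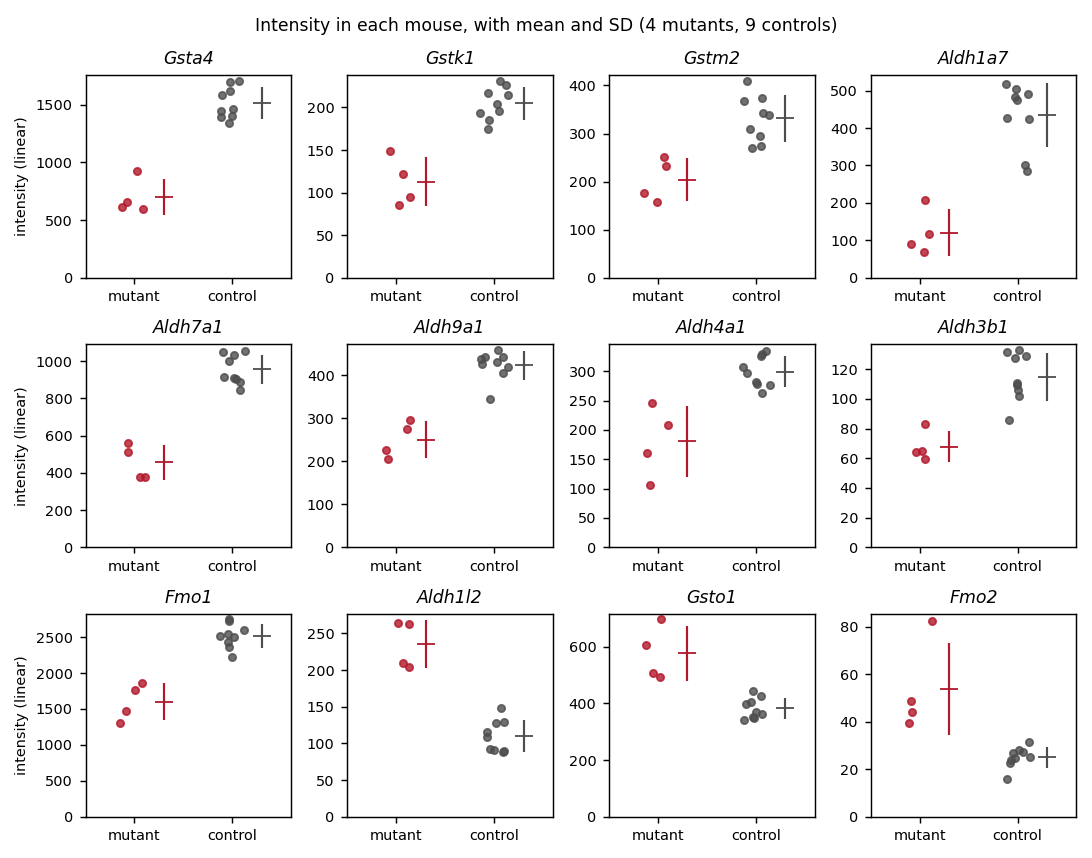
Linear intensity in each mouse for the 12 called genes whose groups do not overlap, with the mean and SD beside the points (mutants left, controls right, axes from 0). The 4 mutants lie below all 9 controls for 9 genes, from Gsta4 to Fmo1, and above them for Aldh1l2, Gsto1 and Fmo2.

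Among the aldehyde dehydrogenases, Aldh1a7 had the log2 fold change of largest size among the 41 genes. It is a rodent paralog of the retinaldehyde dehydrogenase gene Aldh1a1. Intensities were 88.9, 116, 68.3 and 209 in mutants 1 to 4, and the controls ran from 286 through a median of 475 to 518. Means were 120 ± 62.0 in mutants and 434 ± 85.8 in controls, 3.47-fold lower in mutants (log2 fold change -1.80, standard error 0.21, adjusted p = 3.16e-06). Controls 1 and 3, at 286 and 302, were the controls nearest to the mutants. Aldh1a1, which the rule leaves out, fell as well, at 211 ± 65.5 in mutants and 453 ± 88.7 in controls (log2 fold change -1.06, adjusted p = 0.000211). The transcripts of these paralogs are similar, and how far each probe set binds the other transcript was not tested.

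Aldh7a1, known as antiquitin and needed for lysine breakdown, had 375, 513, 376 and 560 in mutants 1 to 4 and 845 to 1057 in controls, with a control median of 912. The groups were far apart, and the gene was 2.08-fold lower in mutants (log2 fold change -1.06, standard error 0.13, adjusted p = 5.22e-06). Aldh9a1, whose enzyme oxidises aminobutyraldehydes on the way to carnitine and GABA and whose promoter held both cores, had 205, 276, 226 and 296 in mutants and 345 to 460 in controls, with a control median of 432 (log2 fold change -0.73, standard error 0.12, adjusted p = 0.000227). Its groups did not overlap.

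Aldh4a1, which completes the breakdown of proline to glutamate, had 107, 209, 160 and 246 in mutants 1 to 4 and 263 to 335 in controls, with a control median of 298. It fell without overlap, although mutants 1 and 4 were more than 2-fold apart (log2 fold change -0.73, standard error 0.16, adjusted p = 0.00257). Aldh6a1, an enzyme of valine and thymine breakdown, had 269, 411, 327 and 684 in mutants and 515 to 726 in controls, with a control median of 614. Mutant 4 lay above the control median and the other mutants lay below every control (log2 fold change -0.64, adjusted p = 0.0183). The call was lost in 6 of 29 alternatives.

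Aldh18a1 works in the opposite sense to Aldh4a1, in the synthesis of proline. It had 365, 376, 363 and 363 in mutants 1 to 4 and 282 to 347 in controls, with a control median of 303. Every mutant was above every control, yet the difference was small and had no call in limma (log2 fold change 0.23, adjusted p = 0.210). The mutant spread of 6.21 (SD) was narrower than the control spread of 24.4, and a test with unequal variances gave an adjusted p of 0.00371. The methods' t-test with the same adjustment gave 0.0157. In limma the adjusted p was 0.00368 centred on reference genes and 0.0011 centred on fibroblast genes, scalings that moved the median of all tested genes upward.

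The folate enzymes Aldh1l1 and Aldh1l2 oxidise formyltetrahydrofolate in the cytosol and in mitochondria. Aldh1l2 rose, with 205, 264, 210 and 263 in mutants 1 to 4 and 87.7 to 149 in controls, and a control median of 109. No mutant overlapped the controls, and the log2 fold change was 1.01 (standard error 0.15, adjusted p = 3.87e-05), or 2.01-fold higher. Aldh1l1, widely used as a marker of astrocytes, had 155, 199, 205 and 306 in mutants and 102 to 215 in controls, with a control median of 129. Only mutant 4 lay above every control, and the gene had no call (log2 fold change 0.49, adjusted p = 0.0989).

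The remaining aldehyde dehydrogenases act mostly on fatty and small aldehydes. Aldh3b1, an enzyme for lipid-derived aldehydes at membranes, fell, with 64.4, 64.7, 59.2 and 83.2 in mutants 1 to 4 and 85.5 to 133 in controls, and a control median of 111 (log2 fold change -0.64, standard error 0.13, adjusted p = 0.00153). The groups did not overlap, but mutant 4 was close to control 3. Its neighbours on chromosome 19, Aldh3b3 and Aldh3b2, had no call, and neither did Aldh3a2, the fatty aldehyde dehydrogenase gene (log2 fold changes -0.37, 0.09 and -0.31). Aldh1b1, a mitochondrial enzyme for acetaldehyde, rose, with 93.8, 91.0, 68.5 and 120 in mutants and 31.2 to 72.7 in controls, and a control median of 54.0 (log2 fold change 0.59, adjusted p = 0.0210). Mutant 3 lay among the controls. Without mutant 1, 2 or 4 the adjusted p of Aldh1b1 was 0.0579, 0.0549 or 0.101, and it was 0.265 in a fit with Xist as a covariate. With unequal variances it was 0.111.

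Aldh5a1, the succinic semialdehyde dehydrogenase gene of GABA breakdown, and Aldh16a1 had log2 fold changes of 0.11 and -0.18 with no call (adjusted p = 0.859 and 0.618). Aldh3a1, best known from the cornea, and Aldh8a1 were near the level of olfactory receptors.

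Fmo1 was the single flavin monooxygenase above the level of olfactory receptors, and it fell. It had 1303, 1770, 1466 and 1856 in mutants 1 to 4 and 2220 to 2754 in controls, with a control median of 2509. The groups did not overlap (log2 fold change -0.66, standard error 0.12, adjusted p = 0.000545). Its neighbour on chromosome 1, Fmo2, best known as the lung enzyme, had 48.9, 82.2, 44.2 and 39.5 in mutants and 15.8 to 31.4 in controls, with a control median of 25.1. Every mutant was above every control and the gene rose (adjusted p = 0.00132), but both group means lay under the olfactory receptor bound, which mutant 2 alone exceeded. Fmo4, Fmo5 and Fmo9 had overlapping values under the bound. Fmo9 had 22.8, 11.2, 15.5 and 22.4 in mutants and 7.97 to 33.2 in controls, with a control median of 19.8 (adjusted p = 0.896).

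The 4 mutants differed among themselves in a regular way. In all 15 genes that fell, mutant 4 was the highest of the mutants, and the lowest was mutant 1 in 9 genes and mutant 3 in 6. Among all 1258 genes that fell in the whole table, mutant 4 was the highest mutant in 71.1%, and mutant 1 or 3 the lowest in 94.0%. Over the 33 genes of the set above the olfactory receptor level, the median deviation from the control mean on the log2 scale was -0.62, -0.30, -0.57 and -0.07 in mutants 1 to 4, and it ranged from -0.17 to 0.15 in controls. The 24 fibroblast markers gave -0.63, -0.06, -0.37 and -0.05 in the same mutants, and 14 reference genes gave -0.28, 0.09, -0.32 and 0.08. Mutants 1 and 3 were thus the lowest in all 3 sets, and the part of this in the results was not tested.

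**Figure D3:**
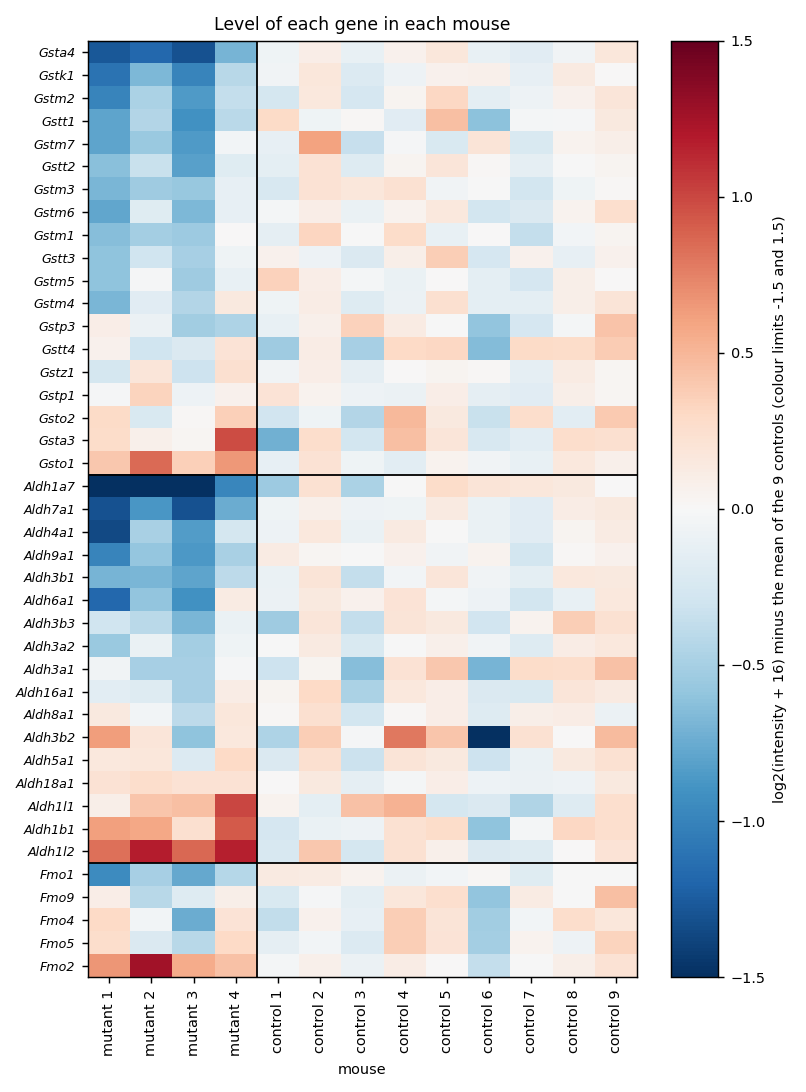
Level of each of the 41 genes (rows) in each mouse (columns, 4 mutants left and 9 controls right), as log2(intensity + 16) minus the mean of the 9 controls. Blue is lower and red is higher, with the colours capped at -1.5 and 1.5; the blue block of the genes that fell is darkest in mutants 1 and 3 and palest in mutant 4.

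Scaling the arrays in other ways shifted all of these genes together. With arrays centred on 24 fibroblast genes or on 14 reference genes, of which Sdha, B2m, Gusb and Tfrc themselves fell, the median of all tested genes moved to 0.31 or 0.25. Centred on fibroblast genes, 10 genes of the set fell and 10 rose, beside 623 and 6427 of all 19938 tested genes. The median log2 fold change was then 0.01 over the set, beside the 0.31 of all tested genes. Centred on reference genes, 9 fell and 7 rose, beside 645 and 4538 of all tested genes, with a set median of -0.04. The 9 that fell were those whose groups do not overlap: Gsta4, Gstk1, Gstm2, Aldh1a7, Aldh7a1, Aldh9a1, Aldh4a1, Aldh3b1 and Fmo1. No gene called in the values as deposited changed its direction under these scalings, nor with arrays centred on their medians. When the 4 dimmest arrays by median (controls 1, 3 and 6 and mutant 3) were left out, 16 genes fell, beside 1242 of all tested genes.

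**Figure D4:**
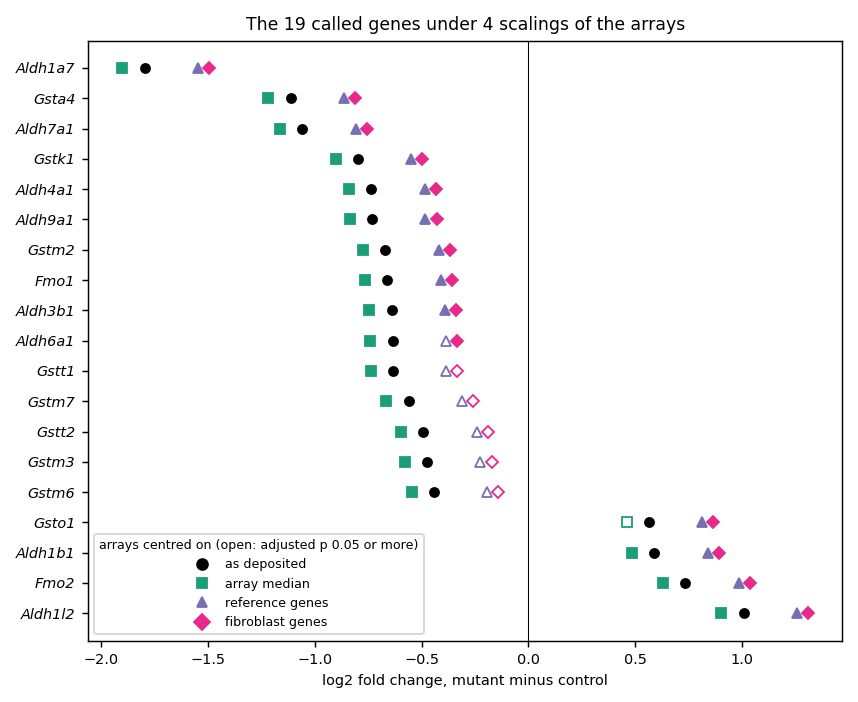
Log2 fold change (mutant minus control) of the 19 called genes with the intensities as deposited and with arrays centred on their median, on reference genes or on fibroblast genes, for 4 mutants and 9 controls. Open symbols mark an adjusted p of 0.05 or more; the symbols of a gene stay on 1 side of 0.

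Markers of several other cell types moved with the genotype, and their counts stand beside 8.58% of all tested genes that rose and 6.31% that fell. Of 19 pan-neuronal genes 18 rose, with a summed intensity of 17137 to 20899 in mutants and 1863 to 5087 in controls, and none was at 0. Of 16 macrophage and microglia genes 14 fell and Tmem119 rose, with summed intensities of 5625 to 10016 in mutants and 12999 to 16897 in controls. Of 13 endothelial genes 8 fell, with sums of 6762 to 9453 in mutants and 9533 to 19890 in controls. Of the 24 fibroblast genes 8 fell and 2 rose, and their median log2 fold change was -0.30, close to the -0.29 of the 41 genes. The fibroblast genes that fell included Ptgds and Slc6a13, markers of the arachnoid and inner meninges, and those that rose were the collagen genes Col1a1 and Col3a1. Of 18 astrocyte and radial glia genes 6 fell, with sums of 16107 to 23386 in mutants and 17861 to 23494 in controls, but the median log2 fold change of this list was 0.08. Of 13 oligodendrocyte lineage genes 4 rose and 1 fell, of 8 choroid plexus genes 1 rose and 2 fell, and of 7 genes of dura, bone and cartilage 2 fell. The 10 mural genes had no call in limma or in the methods' t-test, with 2 at an unadjusted p under 0.05, and the 4 erythroid genes had no call in either, with 0 at that p. The part of these cells in the results above was not tested.

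The supply of glutathione was described by a list of 14 measured genes, of which 2 fell and 2 rose (14.3% each, beside 6.31% and 8.58% of all tested genes, median log2 fold change -0.05). Slc7a11, which imports the cystine needed to make glutathione, averaged 928 ± 180 in mutants and 2024 ± 314 in controls and fell without overlap (log2 fold change -1.11, adjusted p = 2.12e-05). Its partner chain Slc3a2 fell by 0.49 on the log2 scale. Ggt7 and Ggct, annotated as enzymes of glutathione breakdown, passed the test upward (adjusted p = 0.00190 and 0.0488), but Ggct lay near the level of olfactory receptors in both groups and Ggt7 in controls, and no fold is given. The genes of glutathione synthesis itself, Gclc, Gclm and Gss, and the reductase gene Gsr had log2 fold changes from -0.02 to 0.10 with no call.

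Of 14 genes for glutathione peroxidases, glutaredoxins and glyoxalases, 2 fell (14.3%, beside 6.31%), with a median of -0.18 over the list. They were Gpx3, the secreted peroxidase (log2 fold change -0.79, adjusted p = 0.00727), and Gpx8, a peroxidase of the endoplasmic reticulum (log2 fold change -0.57, adjusted p = 0.00534). The membrane-bound transferases are a separate family with a related activity. Of their 6 measured genes 1 rose and 2 fell (16.7% and 33.3%, beside 8.58% and 6.31% of all tested genes). Mgst3 rose without overlap, at 170 ± 35.4 in mutants and 93.6 ± 15.8 in controls (log2 fold change 0.76, adjusted p = 0.00125). Ltc4s, the leukotriene C4 synthase gene, and Alox5ap, which presents arachidonic acid for leukotriene synthesis, fell (log2 fold changes -1.11 and -0.93). Both are known from leukocytes, and the part of the lower macrophage and microglia markers in these values was not tested.

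NRF2 is the regulator best known for switching on glutathione transferases, and its list of 19 measured genes moved in both directions (3 rose and 4 fell, 15.8% and 21.1% beside 8.58% and 6.31% of all tested genes, median 0.07). Hmox1, the haem oxygenase gene, averaged 1260 ± 333 in mutants and 338 ± 67.0 in controls and was 3.55-fold higher (adjusted p = 1.76e-07), with every mutant above every control. Me1 and Srxn1 also rose (log2 fold changes 0.53 and 0.42). Nfe2l2, which encodes NRF2, fell by 0.77 on the log2 scale (adjusted p = 0.0127), but its mutants were spread from 309 to 1000 and overlapped the controls at 902 to 1209. Slc7a11, which both lists hold, Ephx1 and Blvrb fell too (log2 fold changes -1.11, -0.56 and -0.63).

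Other enzymes for aldehydes, alcohols and carbonyls had 22 measured genes, of which 5 fell and 2 rose (22.7% and 9.09%, beside 6.31% and 8.58% of all tested genes). Cbr2, a carbonyl reductase gene, averaged 51.5 ± 25.2 in mutants and 321 ± 58.0 in controls and fell (adjusted p = 9.43e-09), and Akr1c14, an aldo-keto reductase gene, fell by 1.56 on the log2 scale (adjusted p = 1.19e-06). For both genes every mutant lay below every control, and the mutant mean of Cbr2 lay under the olfactory receptor bound, so its fold is left out. Adh1, an alcohol dehydrogenase gene, and the mitochondrial Aldh2, whose symbol the rule does not match, also fell (log2 fold changes -1.06 and -0.46). Akr1b10 fell to 57.1 ± 15.3 in mutants, under the bound, against 105 ± 17.3 in controls. Adh7 and Cbr3 passed the test upward (adjusted p = 0.0287 and 0.0231), with Cbr3 under the bound in both groups and Adh7 in controls.

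**Figure D5:**
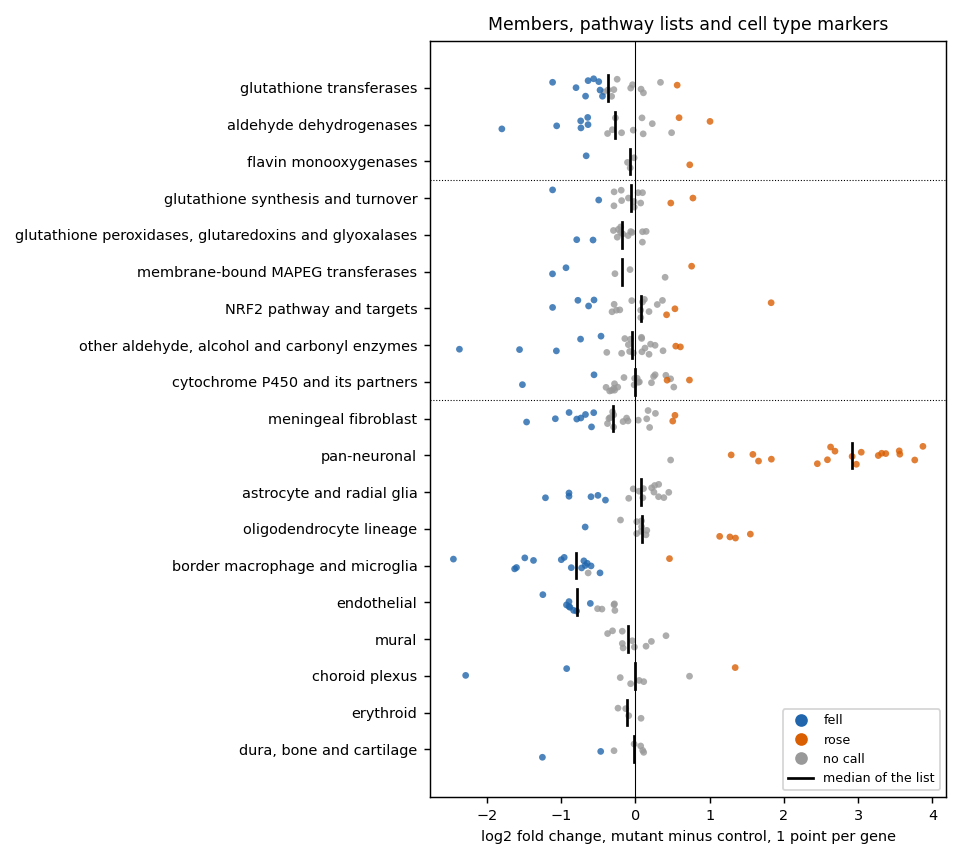
Log2 fold change (mutant minus control) of each gene, 1 point per gene, for the 3 families, 6 pathway lists and 10 lists of cell type markers, with the median of each list as a black bar. The bar of the glutathione transferases lies at -0.37 and that of the meningeal fibroblast markers at -0.30.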

How the data were processed

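RNA of cerebral meninges from 4 mutants and 9 controls was measured on 13 arrays. The authors made the deposited intensity values with PLIER; its version, background step and scaling between arrays are not given in the sources used here. The 35557 probe sets were named with GEO's platform table: 21789 carry 1 symbol, 1621 several and 12147 are not listed. Genes with several probe sets (999) were represented by the brightest. Mutants and controls were compared on log2(intensity + 16) with limma 3.58.1 in R 4.3.3 (lmFit, eBayes, two-sided, no covariate), with Benjamini-Hochberg adjustment over 19938 genes. Folds are on that scale and understate changes of dim genes. Figures used matplotlib 3.10.9 in Python 3.11.15. The limma fit was tested on simulated data, drawn gene by gene without shifts shared by the genes of an array.

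The genes and lists were chosen with earlier results of these data known. All genes of the set may be named, with values in every mutant for those past the threshold and for the gene without a call that had the largest change in its family. In other lists, up to 4 genes of smallest adjusted p, or all that changed if 5 or fewer, are named. Genes named beyond this, such as Gclc, Gss and Gsr, were chosen after their values were seen. Alternatives were other tests, scalings, added constants, filters, the Xist level, the replicate number and leaving out mice. The number of arrays limits the precision.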

Additional observations from a re-analysis of the deposited data

Results flagged for a closer look

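In 82 groups of values (41 genes, mutants and controls), a single mouse stood apart from its group by Dixon's test in 2, both among controls. Chance alone gives about 1 such group in 20. Aldh3b2 had an intensity of 29.0 in control 6, and the other 8 controls lay between 98.3 and 258. Aldh9a1 had 345 in control 7, and the other controls lay between 406 and 460, all above the highest mutant at 296.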

How the results depend on the processing

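Of the 41 genes, 15 fell and 4 rose in the values as deposited. With unequal variances 3 fell (Aldh3b1, Aldh7a1 and Gsta4) and 2 rose, beside 400 and 1139 of all tested genes. The methods' t-test with the methods' threshold and a 2-fold limit gave 3 lower and 1 higher genes, and with Benjamini-Hochberg adjustment alone 13 and 5. Quantile normalization gave 23 that fell, beside 3773 of all tested genes, against 1258 of them in the values as deposited. Centring on reference genes gave 9 that fell and 7 that rose, and centring on fibroblast genes 10 of each. A fit that included Xist left 10 that fell and 2 that rose, beside 605 and 1144 of all tested genes. Leaving out each mouse in turn gave 9 to 17 that fell and 3 to 5 that rose, beside 777 to 1490 and 1331 to 1905. Without mutant 3, 9 fell (777 of all tested genes): Aldh6a1, Gstm3, Gstm6, Gstm7, Gstt1 and Gstt2 lost their calls. Without mutant 1, 10 fell (778 of all tested genes), and without control 2, 14 fell (1038 of all tested genes). For these counts the cause was not tested.

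Gstz1 was the single gene whose direction turned with a call: centred on fibroblast genes its log2 fold change was 0.26 (adjusted p = 0.00836), against -0.04 without a call. Aldh1l2, Aldh3b1, Aldh7a1 and Gsta4 kept their calls under all alternatives scored gene by gene, which leave out the methods' 2-fold limit. At that limit Aldh1a7, Aldh7a1 and Gsta4 stayed lower and Aldh1l2 higher, and the other called genes did not pass. Among the alternatives without it, Aldh1a7, Aldh4a1, Aldh9a1, Fmo1, Gstk1, Gstm2 and Fmo2 lost their calls only with unequal variances. Some genes without a call gained one in the same direction: Gstm1 in 8 of 29 alternatives and Aldh1l1 in 5 of 29. Aldh18a1, Aldh3b3 and Gstt3 did so in 4 of 29 each, and Aldh3a1 in 4 of 28. Mutants and controls of the same replicate number did not deviate together (correlations of -0.34, 0.16, 0.31 and -0.09), so mice that share a number were not treated as pairs. With the number as a block 10 fell and 4 rose, beside 545 and 1284 of all tested genes.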

Other observations

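Cytochrome P450 enzymes, which oxidise foreign molecules ahead of conjugation, and their partners had 23 measured genes, of which 2 rose and 2 fell (8.7% each), close to the 8.58% and 6.31% of all tested genes. Cyp51, an enzyme of cholesterol synthesis, averaged 253 ± 74.9 in mutants and 143 ± 20.7 in controls and rose without overlap (log2 fold change 0.73, adjusted p = 0.00171). Cyp2j9, which oxidises fatty acids, rose with overlap (log2 fold change 0.43, adjusted p = 0.0315). The epoxide hydrolase genes Ephx2 and Ephx1 fell. Ephx2, the soluble enzyme that opens fatty acid epoxides, averaged 54.6 ± 13.4 in mutants and 186 ± 36.8 in controls (adjusted p = 5.90e-07), with every mutant below every control. Its mutant mean lay under the olfactory receptor bound, so no fold is given. Ephx1, the microsomal enzyme, fell by 0.56 on the log2 scale (adjusted p = 0.0331). Cyp1b1, an AHR target known from mesenchymal cells, averaged 2169 in mutants and 1549 in controls with no call (log2 fold change 0.48, adjusted p = 0.0553).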
